A study of Bos taurus with 30 samples.

Results

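CD163L1 marks gamma-delta T cells of cattle, and ID3 takes part in the choice of that lineage in mouse thymocytes. Both were measured in lymphocytes of cows labelled as prednisolone-treated and of control cows. The array table held 44407 features, and the features whose annotation maps to either gene were taken: 2 for CD163L1 and 2 for ID3, 4 in all. The 2 features of each gene carry 1 accession and were treated as duplicate spots of 1 probe, so each gene is described by 1 probe.

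Prednisolone is a synthetic glucocorticoid, given here by mouth at 30 mg per animal each day over 35 days. The 30 arrays fall into 4 groups: lymphocytes of 8 prednisolone-treated cows at the later sampling, T2, of 7 control cows at T2, of the same 8 treated cows at T1 and of the same 7 control cows at T1. All samples are total RNA of Bos taurus lymphocytes, with 1 animal on each array. A slaughterhouse is named for all of them, and how that holds for both samplings of an animal is not stated. The dosing text stands on the labels of control samples too, so the groups were taken from the treatment label. The labels used here give neither breed, age, lymphocyte isolation nor the position of T1 and T2 relative to the dosing.

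CD163L1, also called WC1, is a surface glycoprotein of the scavenger receptor cysteine-rich family. It is carried by most circulating gamma-delta T cells of cattle, which unlike people and mice keep these cells as a large share of blood lymphocytes, and it acts there as a co-receptor and a receptor for bacteria. ID3 is an inhibitor of DNA binding: it has a helix-loop-helix but no basic region, and it holds the E proteins, transcription factors of lymphocyte development, away from DNA. In mouse thymocytes, strong signals through the T cell receptor induce ID3 by way of EGR transcription factors and so take part in the choice of the gamma-delta lineage, and bone morphogenetic proteins and transforming growth factor beta act on Id genes in many cells.

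The platform names the CD163L1 features DMBT1, another scavenger receptor cysteine-rich protein, but their accession, NM_176651, belongs to CD163L1 in the RefSeq annotation of cattle, which lists WC1 among the gene's other names. The ID3 features carry NM_001014950. The annotation places WC1, WC1.3, WC1-8, WC1-10, WC1-12 and CD163 on the same chromosome as CD163L1, and no feature of the array is named for any of them. WC1 genes are near copies of each other, so the CD163L1 signal may hold RNA of other WC1 genes and is uncertain in that respect. Of the 8 gamma-delta T cell markers listed, only CD163L1 and ID3 were named on the array, so the gamma-delta label was not checked against receptor genes such as TRDC.

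The deposited intensities were scaled between arrays and put on a log2 scale, in which 1 unit is a doubling. Each array held values for 34506 to 38801 features, and its median correlation with the arrays of its own group was 0.976 to 0.989. The T cell gene CD3E and the B cell gene CD79A gave signal in all 4 groups. Genes of other blood cells did as well: the group means of HBB, a haemoglobin chain of red cells, were 16.57 to 17.38 on the log2 scale, and those of the neutrophil gene S100A12 were 17.09 to 17.23. In such bulk samples, fewer cells of a type and less RNA per cell cannot be told apart.

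The duplicate spots of each gene agreed on nearly all arrays. For CD163L1 the median gap between spots was 0.025 on the log2 scale, with 1 array over 0.25 (control animal 20 at T1, 0.55), and the spots correlated at 0.98 over 30 arrays. For ID3 the median gap was 0.070, with 1 array over 0.25 (control animal 17 at T2, 0.83), and the correlation was 0.96 over the 29 arrays with both spots. The remaining array, of treated animal 25 at T1, had 1 ID3 spot value. Probes differ in how they hybridise, so the level of CD163L1 was not set against that of ID3.

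CD163L1 lay at closely similar levels in the 4 groups and varied widely between the animals of each. Its intensity ran from 14613 (animal 32) through a median of 21582 to 30309 (animal 28) in prednisolone-treated animals at T2. In control animals at T2 it ran from 11247 (animal 22) through 21433 to 37405 (animal 18). At T1 the treated animals lay at 10509 (animal 32), 24043 and 29537 (animal 26) for lowest, median and highest. Control animals at T1 had 9174 (animal 22), 18504 and 35344 (animal 18). Control animals held the highest and the lowest value at each time, and every treated animal lay within the control range at both.

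On the log2 scale CD163L1 averaged 14.38 ± 0.40 in treated animals at T2 (SD, n = 8) and 14.33 ± 0.65 in control animals at T2 (SD, n = 7). At T1 it averaged 14.38 ± 0.48 in treated animals (SD, n = 8) and 14.13 ± 0.71 in control animals (SD, n = 7). The order of the means was therefore treated T2, treated T1, control T2 and control T1, and each mean lay within 1 SD of its neighbours. The plot of levels by group shows this spread.

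**Figure D1:**
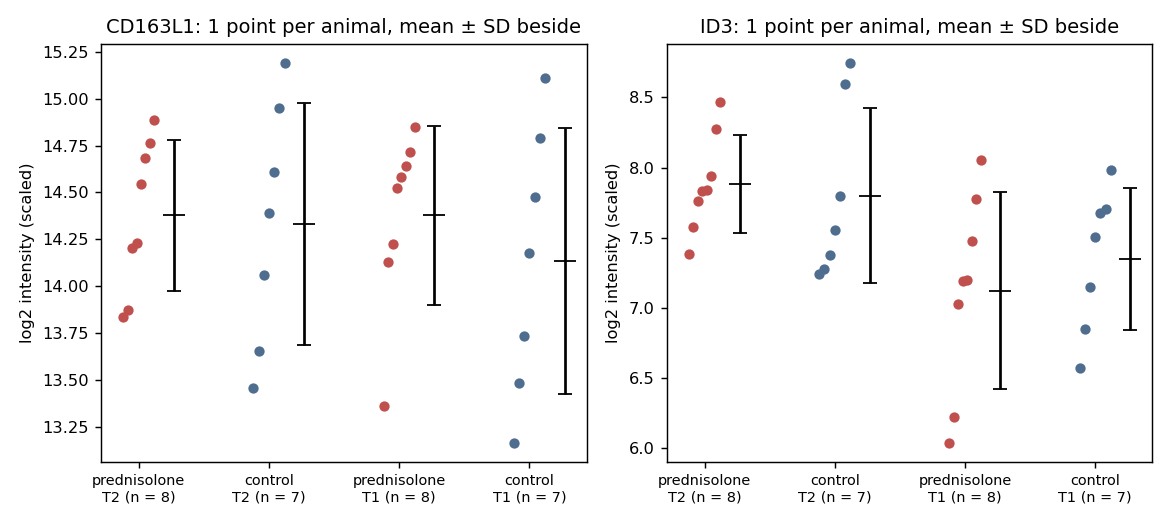
Log2 intensity of CD163L1 and ID3 (y axes) for each animal in 4 groups (x axis: prednisolone T2, control T2, prednisolone T1, control T1). Points are animals, and the marker beside them with its bar is the mean ± SD (n = 8 treated, 7 control). CD163L1 means lie between 14.13 and 14.38 with overlapping animals, and the ID3 mean is 7.89 in treated animals at T2 and 7.12 in the same animals at T1.

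Each of the 6 comparisons of the design was fitted with limma over 2673 named probes. A probe was called where the p-value, adjusted by the Benjamini-Hochberg method over all of them, was at most 0.05. CD163L1 was called in none. At T2 it differed between treated and control animals by 0.05 (SE 0.256, 95% interval -0.50 to 0.59, limma adjusted p = 0.933), with 4 of 8 treated animals above the control mean. There, 17.7% of the probes tested were called. At T1 the difference was 0.25 (SE 0.288, interval -0.37 to 0.86, limma adjusted p = 0.649), with 6 of 8 treated animals above the control mean. At T1 0.262% of probes were called, 7 in all, or 250 with the animal as a block. Averaged over both samplings, the difference was 0.15 (SE 0.265, interval -0.42 to 0.71, limma adjusted p = 0.822), where 2.21% of probes were called, 59 in all, or 100 with the animal as a block.

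These intervals reach beyond 0.5 on the log2 scale in the upward direction, so differences in CD163L1 of that size were not excluded with these numbers of animals. The prednisolone difference at T2 minus that at T1 was -0.20 (SE 0.398, interval -1.01 to 0.62, limma adjusted p = 0.783), in a contrast that called 16.9% of probes. That fit took the 2 arrays of an animal as independent, so its SE and interval leave out the pairing. Under 25 alternatives, an animal block among them, the limma adjusted p was at least 0.687. That block used 1 correlation of an animal's arrays for all probes, 0.25, whereas that of CD163L1 itself was 0.90. A fixed animal block was not fitted for this contrast, so the pairing was taken up only in part.

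Between samplings, CD163L1 differed by 0.00 in treated animals (SE 0.209, interval -0.44 to 0.44, limma adjusted p = 0.9996), again without the pairing of arrays. In the same contrast 36.7% of probes were called, 980 in all. The 8 treated animals went both ways, from -0.65 in animal 26 to 0.48 in animal 32, and 5 of 8 were higher at T2. In control animals the difference was 0.20 (SE 0.333, interval -0.52 to 0.91, limma adjusted p = 0.900). All 7 control animals were higher at T2, each by a small step: 0.33 in animal 20, 0.29 in animal 22, 0.21 in animal 17, 0.17 in animal 21, 0.16 in animal 24, 0.13 in animal 23 and 0.08 in animal 18. With the animal as a fixed block the same 0.20 had an SE of 0.068 and still did not pass (limma adjusted p = 0.217). Limma called 0% of probes in this contrast, 0 of 2673, with 264 at an unadjusted p under 0.05, and 3 with a fixed block or 31 with the animal as a random block. Whether the time difference of CD163L1 itself differs between treated and control animals is the contrast above, which did not pass.

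**Figure D2:**
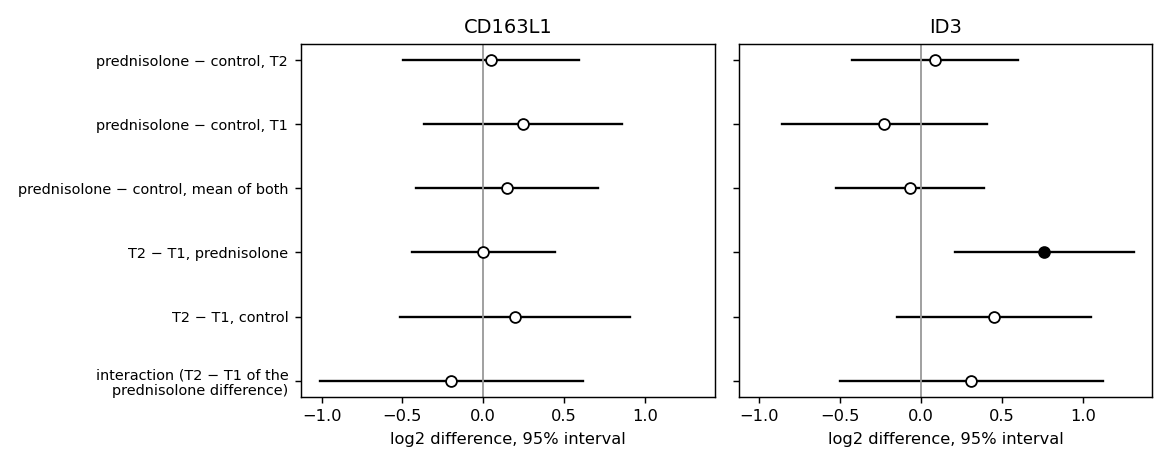
Log2 differences of CD163L1 and ID3 (x axis) in the 6 comparisons (y axis), with 95% intervals from limma. Intervals of T2 minus T1 and of the interaction leave out the pairing of an animal's arrays. Filled points have an adjusted p of at most 0.05: the ID3 difference of T2 minus T1 in prednisolone animals, at 0.76, is the only one.

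CD163L1 levels differed more between animals than between the samplings of an animal. The means of each animal's 2 arrays spanned 1.84 on the log2 scale, 3.58-fold, from 13.31 in control animal 22 to 15.15 in control animal 18. An animal's own T2 and T1 levels differed by a median of 0.17, and by under 0.25 in 10 of 15 animals. Animal 22 was lowest and animal 18 highest of the control animals at both samplings, and animal 32 was lowest of the treated animals at both.

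Deviations from the group means correlated between an animal's T2 and T1 arrays with r = 0.90 and rho = 0.85 over 15 animals (permutation p = 2.00e-05 for r and 3.60e-04 for rho). Adjusted over both genes, p was 4.00e-05 for r and 7.20e-04 for rho. Without animals 22 and 32, the farthest from the median, r was 0.88 (permutation p = 7.90e-04, n = 13). Without each animal in turn r stayed between 0.87 and 0.96. Over the 2673 probes tested the median of this correlation was 0.26, and 35 probes exceeded that of CD163L1, a description of the probes with no test. No batch, slide or hybridisation label is given, so a within-batch value could not be had.

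For ID3 the same correlation did not pass. Its T2 and T1 deviations correlated with r = 0.25 and rho = 0.20 (permutation p = 0.335 and 0.460, n = 15; both unchanged by adjustment over the genes). Without animals 28 and 32, the farthest from the median, r was 0.19 (permutation p = 0.578, n = 13). By this measure 1362 of 2673 probes lay above ID3. Animal means of ID3 spanned 1.42 on the log2 scale, 2.67-fold, while an animal's samplings differed by a median of 0.70.

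**Figure D3:**
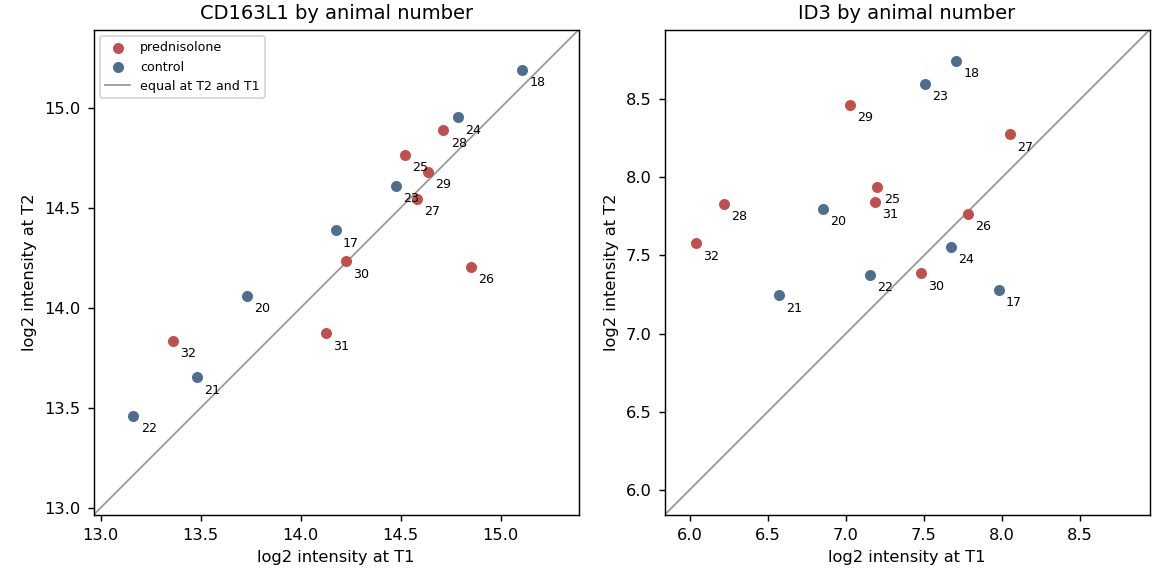
Log2 intensity at T2 (y axis) against T1 (x axis) for CD163L1 and ID3, with 1 numbered point per animal (8 prednisolone, 7 control) and the line of equal levels. CD163L1 points lie along the line (r = 0.90 of deviations from group means), and ID3 points scatter. For ID3, treated animals 28, 29 and 32 lie farthest above the line (1.44 to 1.61). Control animals 18, 20 and 23 lie above it by 0.95 to 1.09.

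ID3 was higher at T2 in treated animals, and this was the only contrast in which either gene passed. Its intensity at T2 ran from 167 (animal 30) through a median of 229 to 353 (animal 29) in treated animals. Control animals at T2 had 152 (animal 21), 188 and 429 (animal 18). Treated animals at T1 had 65.7 (animal 32), 146 and 265 (animal 27) for lowest, median and highest. Control animals at T1 had 95.2 (animal 21), 182 and 252 (animal 17). The ranges of all groups overlapped, and 6 of 8 treated animals at T2 lay within the range of the same animals at T1.

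The log2 means of ID3 were 7.89 ± 0.35 in treated animals at T2 (SD, n = 8) and 7.80 ± 0.63 in control animals at T2 (SD, n = 7). They were 7.12 ± 0.70 in treated animals at T1 (SD, n = 8) and 7.35 ± 0.51 in control animals at T1 (SD, n = 7). In order of level, treated T2 and control T2 came first, then control T1 and treated T1. Neighbours in that order did not differ beyond their spread. The ends of the order, which are the same 8 animals at T2 and at T1, differed in their means, as given next. Their ranges overlapped.

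In treated animals ID3 rose by 0.76 at T2 relative to T1, or 1.70-fold (SE 0.261, 95% interval 0.21 to 1.31, limma adjusted p = 0.0308). It ranked 860 of 2673 probes by p in a contrast where 36.7% of probes were called, 552 higher and 428 lower, and where the median of all probes was 0.03. The rise was uneven: 6 of 8 animals were higher at T2, by 1.61 in animal 28, 1.54 in animal 32, 1.44 in animal 29, 0.74 in animal 25, 0.65 in animal 31 and 0.22 in animal 27. Animals 26 and 30 differed by -0.01 and -0.09.

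The call lay near the threshold and was lost without any 1 of 5 single animals. Each omission also left fewer animals. Animals 25 and 31 had differences near the mean of 0.76, at 0.74 and 0.65. Without animal 25 the limma adjusted p was 0.0596, without 28 it was 0.0815, without 29 0.0849, without 31 0.0594 and without 32 0.0545, while the difference stayed between 0.64 and 0.88 over the 8 omissions. Without animals 28 and 32 together it was 0.49 (limma adjusted p = 0.109), and with array weights 0.58 (limma adjusted p = 0.0556). With the animal as a fixed block the adjusted p was 0.0203.

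In control animals the ID3 difference between T2 and T1 was 0.45 (SE 0.281, interval -0.15 to 1.05, limma adjusted p = 0.623). Of the 7 control animals 5 were higher at T2, by up to 1.09 in animal 23, and 2 were lower, with -0.70 in animal 17 and -0.12 in animal 24. The ID3 spots of animal 17 at T2 are the pair with the large gap. The median difference was 0.67 in control animals, close to the 0.70 of treated animals. The time differences of treated and control animals were not shown to differ from each other: the contrast of both was 0.31 (SE 0.396, interval -0.50 to 1.12, limma adjusted p = 0.642). This fit too left out the pairing of an animal's arrays.

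Treatment comparisons of ID3 within a sampling did not pass either. At T2 treated minus control was 0.09 (SE 0.241, interval -0.43 to 0.60, limma adjusted p = 0.863), with 5 of 8 treated animals above the control mean. At T1 it was -0.23 (SE 0.299, interval -0.86 to 0.41, limma adjusted p = 0.686), with 3 of 8 above it. Averaged over samplings it was -0.07 (SE 0.215, interval -0.53 to 0.39, limma adjusted p = 0.902).

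Markers of other blood cells also differed between T2 and T1 in treated animals. Of 10 monocyte and macrophage markers, 6 were named on the array, and 5 genes were tested with 6 probes. In treated animals between T2 and T1, 2 of the 6 probes were called lower and 2 higher, with a median of -0.30, where 36.7% of all probes were called. CD14, the lipopolysaccharide co-receptor of monocytes, which had a value on all 30 arrays, fell by 2.33 (SE 0.370, limma adjusted p = 1.73e-04), and CD86, a costimulatory molecule of antigen-presenting cells, fell by 1.46 (limma adjusted p = 9.62e-05). A probe of MSR1 rose by 0.57 (limma adjusted p = 0.00173) and ITGAM, an integrin chain of myeloid cells, by 0.46 (limma adjusted p = 0.0363), while TLR4 and the other MSR1 probe differed by -0.29 and -0.31 and did not pass. The summed intensity of the 6 probes, as log2, was 11.90 to 13.45 in treated animals at T2 and 12.52 to 14.06 in control animals at T2. It was 13.69 to 15.78 in treated animals at T1 and 12.52 to 13.88 in control animals at T1. The sum was lower at T2 in 8 of 8 treated animals, with a mean T2 minus T1 of -1.88. A sum of intensities follows its brightest probes, so members that rose do not show in it. In control animals the sum was lower at T2 in 5 of 7, with a mean difference of 0.16.

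The erythroid sum was higher at T2 in 7 of 8 treated animals, by 0.81 on average. It was also higher in 6 of 7 control animals, by 0.35. None of the 5 erythroid probes passed in either group. Of all 2673 probes, 36.7% were called between T2 and T1 in treated animals and 0% in control animals. In treated animals HBB differed by 0.82 (limma adjusted p = 0.114) and AHSP, a haemoglobin chaperone, by -0.18 (limma adjusted p = 0.226). The part of these cells in the ID3 result was not tested. Summed alpha-beta T cell markers, of which 3 of 7 genes were named, were higher at T2 in 7 of 8 treated animals (mean 0.37) and in 2 of 7 control animals (mean -0.08). In treated animals 2 of the 4 probes were called higher, CD40LG by 0.80 and CD8A by 0.45 (limma adjusted p = 0.00502 and 0.0465). Of the 2 CD28 probes 1 was called lower, at -0.61 (limma adjusted p = 0.0223). The median of the 4 was 0.15, beside 36.7% of all probes called there, 552 higher and 428 lower. The part of alpha-beta T cells was likewise not tested.

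Animals 28 and 32, with the largest ID3 differences between T2 and T1 and the lowest ID3 among treated animals at T1, also stood apart on their T1 arrays. Their CD14 there was 14.91 and 15.61 on the log2 scale, the highest of the 8 treated animals, and their monocyte sums were 15.12 and 15.78. They were the 2 of 15 animals whose T1 deviations over the tested probes correlated better with the T2 array of another animal than with their own. Without both, the ID3 difference did not pass, as given above, and the part of these features in it was not tested.

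Other genes of the T cell receptor and of ID3's surroundings were taken from lists. Of 26 genes of the receptor complex and the gamma-delta lineage, 5 were tested with 6 probes. Between T2 and T1 in treated animals 1 probe was higher and 1 lower, with a median of 0.12, a share called near the 36.7% of all probes. CD3G, a signalling chain of the receptor complex, rose by 0.34 (SE 0.107, limma adjusted p = 0.0198). A probe of ZBTB16, the transcription factor PLZF of innate-like T cells and a glucocorticoid target, fell by 0.79 (SE 0.162, limma adjusted p = 0.00158), and the other ZBTB16 probe differed by -0.70 (limma adjusted p = 0.0712). CD3D, CD3E and CD247 differed by 0.15, 0.09 and 0.21 and did not pass.

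Of 16 scavenger receptor cysteine-rich genes, relatives of CD163L1, 3 were tested with 4 probes, and 2 probes passed in treated animals between T2 and T1, both higher, with a median of 0.13, beside 36.7% of all probes called there. CD6, a T cell surface receptor, rose by 0.81 (SE 0.177, limma adjusted p = 0.00212). A probe of MSR1, the macrophage scavenger receptor, rose by 0.57 (limma adjusted p = 0.00173), whereas its second probe differed by -0.31 and did not pass. At T2 that first MSR1 probe was also higher in treated than in control animals, by 0.90 (limma adjusted p = 0.0131).

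Of 9 Id and E protein genes, 2 were tested, and between T2 and T1 in treated animals, where 36.7% of all probes were called (552 higher and 428 lower), 1 was called higher and 1 lower. ID1, another inhibitor of E proteins, rose by 0.997 (SE 0.334, limma adjusted p = 0.0290). ID1 averaged 5.33 ± 0.74 in treated animals at T2 (SD, n = 8) and 4.33 ± 0.63 in treated animals at T1 (SD, n = 7). Control animals averaged 5.09 ± 0.48 at T2 (SD, n = 5) and 4.35 ± 0.56 at T1 (SD, n = 7). The ID1 signal was thus low, and some arrays had no value. ID2, which restrains E proteins in natural killer and effector T cells, fell by 0.35 (SE 0.130, limma adjusted p = 0.0426). In control animals the differences were 0.74 for ID1 (limma adjusted p = 0.412) and -0.07 for ID2 (limma adjusted p = 0.880).

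Of 24 listed genes of pathways that act on Id genes, 8 were tested. Between T2 and T1 in treated animals 5 of these were higher and 2 lower, with a median of 0.70. Over all probes 36.7% were called there, with a median of 0.03. EGR1, which switches ID3 on in mouse thymocytes, rose by 2.26 (SE 0.214, limma adjusted p = 2.69e-06). FOS and JUN, the subunits of the AP-1 factor, rose by 1.65 (limma adjusted p = 1.20e-04) and 0.86 (limma adjusted p = 2.69e-06). BMP4, a bone morphogenetic protein, rose by 1.05 (limma adjusted p = 0.00671), and BMPR2, a receptor for such ligands, rose by 0.53 (limma adjusted p = 0.00770). TGFB1 fell by 0.66 (limma adjusted p = 0.00958) and its receptor TGFBR1 fell by 0.43 (limma adjusted p = 0.00293). Deviations from group means over all arrays correlated with those of ID3 at r = 0.003 for EGR1 and -0.12 for FOS. The same r was 0.41 for JUN, 0.32 for BMP4, -0.42 for BMPR2 and 0.47 for BMPR1A. For TGFB1 it was -0.10 and for TGFBR1 -0.32. These r values are a description, and the part of these genes in the ID3 result was not tested.

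At T2, EGR1 was higher in treated than in control animals by 1.60, FOS by 1.77 and JUN by 0.84 (limma adjusted p = 0.00201, 2.06e-05 and 7.07e-05), the 3 of these 8 genes that passed there, where 17.7% of all probes did. ID3 did not pass in the same contrast. In control animals, where limma called 0 of all 2673 probes between T2 and T1 (264 at an unadjusted p under 0.05), none of the 8 passed, and EGR1 differed by 0.40 (limma adjusted p = 0.703).

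Of 12 genes that E proteins regulate in mouse lymphocytes, 4 were tested with 6 probes, and 2 probes passed between T2 and T1 in treated animals, both lower, with a median of -0.45, a share near the 36.7% of all probes called there. CXCR4, a chemokine receptor of lymphocytes, fell by 1.44 (SE 0.146, limma adjusted p = 4.31e-06). A probe of CXCR5, the follicle-homing receptor, fell by 0.96 (limma adjusted p = 0.00270), and its other 2 probes differed by -0.52 and -0.39 and did not pass.

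CD163L1 and ID3 were also compared across animals at each sampling. Their deviations from the group means correlated at T2 with r = 0.62 and rho = 0.58 (permutation p = 0.0354 and 0.0492, n = 15). At T1 r was 0.58 and rho 0.57 (permutation p = 0.0218 and 0.0292, n = 15). Adjusted over both samplings, p was 0.0354 for each r and 0.0492 for each rho.

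The relation did not pass without some of the animals. Without the 2 farthest from the median of CD163L1 it was r = 0.44 at T2 (animals 18 and 22 left out, permutation p = 0.170, n = 13) and r = 0.44 at T1 (animals 22 and 32 left out, permutation p = 0.142, n = 13). Leaving out each animal in turn gave r of 0.48 to 0.73 at T2, where the adjusted permutation p exceeded 0.05 without animals 18, 20, 21, 22, 29 or 32. It gave 0.42 to 0.73 at T1, where that was so without animals 18, 20, 21 or 32. At T2 r was 0.63 without animal 20 and 0.61 without animal 29, close to the 0.62 with all animals. Without animals 28 and 32, r was 0.64 at T2 and 0.62 at T1 (adjusted permutation p = 0.0492 for both). With quantile normalization r was 0.67 at T2 and 0.60 at T1 (adjusted permutation p = 0.0193 for both).

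The genes whose levels were most like each member were ranked by the Pearson r of deviations from the 4 group means over 30 arrays, among 2377 probes with a value on every array. Arrays of 1 animal enter this measure as a pair, and it is a description with no test. For CD163L1 the highest was CD247, the zeta signalling chain of the T cell receptor complex, with r = 0.90 and rho = 0.91, and with r = 0.83 at T2 and 0.95 at T1. The median r of all probes with CD163L1 was -0.03. CD247 was followed by KCND1, a potassium channel subunit (r = 0.83), RANBP6, a nuclear transport receptor (0.77), MAPT, the microtubule protein tau (0.76), and CHRNB1, an acetylcholine receptor subunit (0.74).

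The other chains of the receptor complex lay lower on the same measure, with r = 0.46 for CD3G, 0.41 for CD3E and 0.06 for CD3D. The other listed genes of T cells without CD4 or CD8 restriction lay below 0: -0.11 for CD2, -0.34 for CD5 and -0.37 for CD6. CD2 is the pan T cell adhesion molecule that most WC1-bearing cells lack, and the CD5 signal was low (mean 3.57). Of the alpha-beta T cell genes, r was 0.02 for CD8A, 0.01 for CD40LG, and -0.46 and -0.21 for the 2 probes of CD28. Among the 7 probes of natural killer and cytotoxic markers r ran from 0.07 for NKG7 through 0.38 for a probe of KLRK1 to 0.63 for KLRD1, a receptor of these cells.

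**Figure D4:**
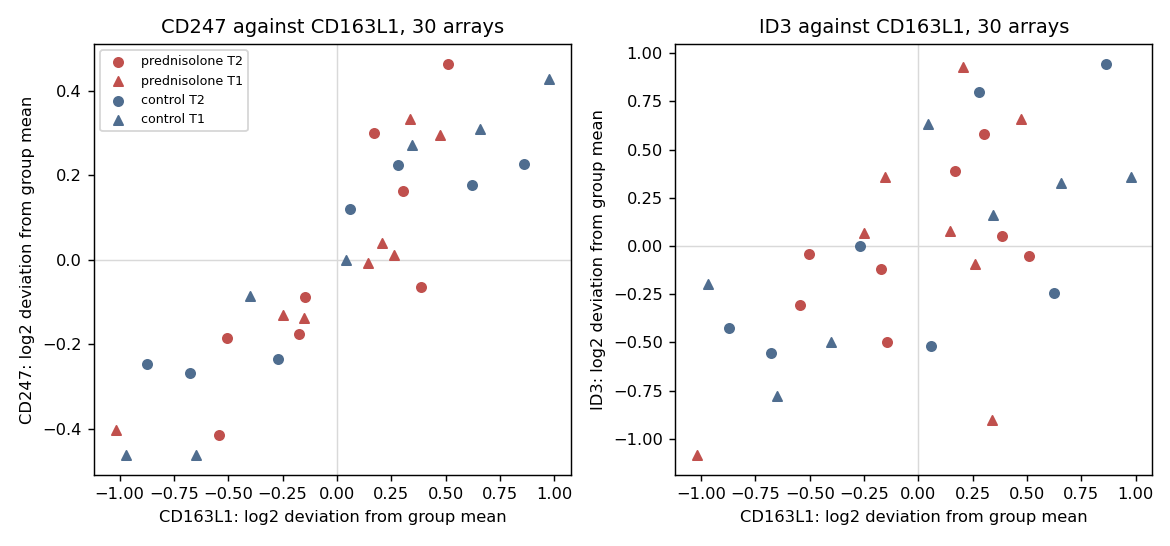
Deviations of log2 intensity from the group mean over 30 arrays: CD247 (y axis, first panel) and ID3 (y axis, second panel) against CD163L1 (x axes). Colours mark treatment and shapes the sampling. CD247 follows CD163L1 closely (r = 0.90), and ID3 does so more loosely.

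For ID3 the most alike were NADSYN1, the enzyme that completes NAD synthesis (r = 0.82), MYNN, a zinc finger protein (0.73), ASB11, an adaptor of ubiquitin ligases (0.71), LGALS4, galectin-4 (0.70), and DNASE1 (0.70). Likeness of deviations leaves the group means free, and between T2 and T1 in treated animals, where 36.7% of all probes were called, 3 of these 5 passed, all higher: NADSYN1 rose by 0.68 (limma adjusted p = 0.00292), LGALS4 by 0.67 (8.59e-04) and DNASE1 by 0.52 (0.0123). MYNN and ASB11 differed by -0.14 and -0.04. Of the 5 genes most like CD163L1, MAPT rose by 0.67 (limma adjusted p = 0.00551) and KCND1 by 0.53 (2.57e-04), and CD247, RANBP6 and CHRNB1 differed by 0.21, 0.03 and 0.08 without passing. Among the listed cell markers, r with ID3 was highest for the B cell gene CR2 (0.55), then CD247 (0.49). Other B cell genes had 0.32 (CD79A), 0.25 (BTK) and -0.11 (CD40), and other receptor chains 0.20 (CD3G), 0.13 (CD3E) and -0.26 (CD3D). The lowest were CD86 (-0.61), S100A12 (-0.53) and CD14 (-0.51).

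CD247 itself passed in none of the comparisons and averaged 15.20 ± 0.29 in treated animals at T2 (SD, n = 8), 15.13 ± 0.24 in control animals at T2 (SD, n = 7), 14.99 ± 0.24 in treated animals at T1 (SD, n = 8) and 15.05 ± 0.36 in control animals at T1 (SD, n = 7). Its T2 and T1 deviations correlated at 0.76 over animals, with 160 of 2673 probes above it. KCND1, by the same measure, stood at 0.58, and RANBP6 and MAPT at 0.73 each.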

How the data were processed

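The deposited table held linear intensities of single-colour Agilent arrays. Per the series text, each slide was scanned at 2 sensitivities and the authors' Feature Extraction 9.5 detrended the signal and subtracted background. R 2.11.1 is named in the submitters' processing notes. The sources used here do not give any normalization between arrays, nor why 17.2% of cells had no value.

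Each array was divided to a common 75th percentile over 23055 features with a value on all arrays (largest shift 0.044 log2), raised to a floor of 2.51 (percentile 1) and logged. The platform annotation gave 1 gene for 6954 of the 44407 features and none for 37453. Names came from the accession (5432 features), a current symbol (1358), a synonym (158) or the platform alone (6). The cattle annotation (ARS-UCD2.0) served for names and neighbours only, and no coordinates are given because the build behind the probes is not named. Features of 1 gene and accession were averaged, or split where more than 2 differed (linkage within 0.25 log2 and r of at least 0.8), giving 3616 probes of 3269 genes. Probes in the lowest 25% by mean, or with under 4 values in a group, were left out, and 2673 probes of 2485 genes were tested.

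Differences were fitted with limma 3.58.1 (lmFit, eBayes; R 4.3.3), two-sided, on the compared groups, with Benjamini-Hochberg adjustment and intervals at 95%. Fits across samplings took both arrays of an animal as independent, except where a block is named. Treatment averages used each animal's mean of both arrays. The code was tested on simulated data. Correlations were permuted within groups with 100000 resamples, two-sided (Python 3.11.15, scipy 1.17.1). The number of animals limits the precision. Titles give the animal, so T1 and T2 are paired: deviations of an animal's arrays correlated at 0.224 to 0.639 (median 0.435), and 13 of 15 animals, all but 28 and 32, matched their own number best. Alternatives were other scalings, floors and filters, features apart, 1 fit of all arrays, animal blocks, array weights and omitted animals. Both genes are named whatever their result, with the 5 genes most like each and up to 4 passing members per list and comparison; others with values were named after these were seen. Genes and lists were chosen with earlier results of these data known.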

Additional observations from a re-analysis of the deposited data

How the results depend on the processing

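CD163L1 passed in no comparison under any alternative, and ID3 passed only between T2 and T1 in treated animals. That ID3 call was lost with array weights (0.58), without animals 28 and 32 (0.49) and without each of 5 single animals (0.64 to 0.88 over 8 omissions). It held in the other alternatives, animal blocks included. Under quantile normalization with the filter on dim probes ID3 was not tested, because its probe fell among the lowest 25% of probes with complete features; without that filter it differed by 0.71 (limma adjusted p = 0.0337), an alternative chosen after seeing the data, as were the single omissions. The correlation of CD163L1 with ID3 fell to r = 0.44 at T2 and at T1 without the 2 farthest animals, and was 0.48 to 0.73 at T2 and 0.42 to 0.73 at T1 without single animals.

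Numbers of called probes moved by over 1.5 times as follows. For treated minus control at T1 there were 7 in the main setting, 49 with quantile normalization, 2 as deposited, 0 with no filter on dim probes, 324 of 30010 with every feature apart, 261 in 1 fit of all arrays, 250 with the animal as a replicate block, 73 with array weights, 0 without animals 28 and 32, and 0 to 104 without single animals. With every feature apart there were 5807 at T2, 11797 between T2 and T1 in treated animals, 5602 for the contrast of both and 909 for the average; more features were tested there. Between T2 and T1 in control animals there were 5 in 1 fit, 31 and 3 with the random and fixed block, 2 with array weights and 0 to 2 without single animals. The contrast of both had 222 without animals 28 and 32. The average had 92 with quantile normalization, 34 with no filter, 100 with the block, 15 without animals 28 and 32, and 16 to 81 without single animals. The cause was not tested. The block changed no call of either gene.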
